A study of Mus musculus with 8 samples.

Results

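The integrins of T cells described here are 10 genes chosen by name, of 54146 genes with deposited values. They encode 4 beta subunits (Itgb1, Itgb2, Itgb3 and Itgb7) and 6 alpha subunits (Itga1, Itga2, Itga4, Itgae, Itgal and Itgav). The measurements were RNA-seq of 8 libraries from EL4 cells, a T lymphoblast line from C57BL/6 mice that expresses Gata3 but not Tbx21 of its own. There were 4 lines with 2 libraries each. The GFP + Plum line carried both control fluorescent proteins, the T-bet + Plum line carried FLAG-T-bet with Plum, the GFP + GATA3 line carried HA-GATA3 with GFP, and the T-bet + GATA3 line carried both factors. All 4 lines were stimulated for 4 h with the phorbol ester PMA at 50 ng/ml and ionomycin at 1 μM before RNA was taken, so no unstimulated cells enter any comparison. The factors were introduced with retrovirus under selection, and each combination of factors is represented by 1 line, so a factor and the line that carries it cannot be told apart. By the study's definition, replicates are cells of a line collected on separate days, and p-values measure the spread between such harvests and not between independently made lines.

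Integrins are paired receptors made of one alpha and one beta subunit, and neither subunit reaches the cell surface alone. On T cells, the alpha L beta 2 pair (LFA-1) binds ICAM proteins on other cells and holds the contact with antigen-presenting cells, the alpha 4 beta 7 pair binds MAdCAM-1 on gut vessels, and the alpha E beta 7 pair binds E-cadherin on epithelium. The alpha 1 beta 1 and alpha 2 beta 1 pairs bind collagen, and the alpha V pairs bind matrix proteins such as osteopontin and vitronectin. Signals inside the cell switch the pairs from a resting to a ligand-binding state through talin, kindlin and the small GTPase Rap1. T-bet (Tbx21) and GATA3 are the factors that direct type 1 and type 2 helper T cells, and the comparisons below ask how the integrin transcripts stood when either or both were added.

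Totals were between 8038565 and 16003519 estimated counts per library, the lowest in T-bet + Plum replicate 1, and a floor of 3 counts lay between 0.187 and 0.373 counts-per-million (CPM). Tbx21 was between 52.4 and 70.2 transcripts-per-million (TPM) in the 4 libraries with T-bet and at most 1.71 TPM in the other 4. Gata3 was at 263 and 300 TPM in GFP + GATA3 and at 164 and 138 TPM in T-bet + GATA3. It was at 24.8 and 27.6 TPM in GFP + Plum and at 11.4 and 20.5 TPM in T-bet + Plum. Gata3 itself was thus lower with T-bet both with and without added GATA3. The part of this in the comparisons for T-bet was not tested. Of 13 T cell genes, 11 were at 1 TPM or more in every library, while Cd247 was between 0 and 0.511 TPM. The summed TPM of these 13 genes was between 3878 and 4597 in libraries with T-bet and between 2802 and 3502 in libraries without. None of the 5 B cell, 5 myeloid or 5 megakaryocyte genes checked was above 1 TPM in any library. Of the 5 osteoclast genes only Acp5 was above 1 TPM, at 2.27 to 6.68, and of the 4 fibroblast genes only Pdgfra, at 0.554 to 6.65. Summed per list, the fibroblast genes were at 3.32 to 6.71 TPM without T-bet and 0.554 to 1.98 TPM with it, the osteoclast genes at 4.33 to 7.32 and 3.43 to 4.24 TPM, and the myeloid genes at 0.557 to 1.01 and 0.108 to 0.191 TPM. The part of these differences, and of that in the T cell genes, in the integrin results was not tested. In RNA from a whole culture, fewer cells that use a gene and less of its RNA per cell cannot be told apart.

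All 10 are annotated as protein-coding, and Itga1 and Itga2 lie on the same strand of chromosome 13. Of the 10 genes, 6 had a promoter in the RefSeq table of GRCm38.p6, namely Itgav, Itgb1, Itgb7, Itga1, Itga2 and Itga4. The sequences of 3 are given as those of the gene that was lower with T-bet (Itgb7), a partner chain that was higher (Itga4) and the gene with the largest fitted fold change (Itga2). Each is the 250 bases before the RefSeq start, 5′ to 3′ on the gene's strand, in lower case with any match to a T-box core (GGTGTGA) or a GATA motif (AGATAA), on either strand, in capitals. Itgb7 is read from chr15:102231936-102232185 on the minus strand (its last 9 bases lie inside the GENCODE M21 gene, which starts farther upstream), Itga2 from chr13:114932101-114932350 on the minus strand, and Itga4 from chr2:79255176-79255425 on the plus strand.
Itgb7: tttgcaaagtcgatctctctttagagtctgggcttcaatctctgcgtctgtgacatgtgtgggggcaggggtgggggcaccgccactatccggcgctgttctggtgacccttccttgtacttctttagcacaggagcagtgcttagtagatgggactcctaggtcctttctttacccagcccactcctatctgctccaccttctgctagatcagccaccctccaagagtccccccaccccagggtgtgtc
Itga2: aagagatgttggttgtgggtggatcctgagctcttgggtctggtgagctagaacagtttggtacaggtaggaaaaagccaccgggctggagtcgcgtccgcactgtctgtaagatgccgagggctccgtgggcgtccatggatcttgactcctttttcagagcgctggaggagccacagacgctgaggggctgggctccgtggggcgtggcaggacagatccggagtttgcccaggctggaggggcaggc
Itga4: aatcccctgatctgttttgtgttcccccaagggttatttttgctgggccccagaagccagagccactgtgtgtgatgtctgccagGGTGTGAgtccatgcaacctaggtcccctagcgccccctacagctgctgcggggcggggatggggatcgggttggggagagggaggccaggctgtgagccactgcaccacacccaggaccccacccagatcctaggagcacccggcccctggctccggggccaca
The T-box core was found once among the 6 promoters, in Itga4, where it starts 165 bases before the RefSeq start. It was present in 3.33% of 32851 promoters of this length. The GATA motif was in none of the 6 and in 9.99% of all. No match of one motif overlapped a match of the other, and a match or its absence describes only the letters of the window.

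The level of the 10 genes spanned from over 100 TPM to no count at all. TPM is scaled for transcript length and is used here to compare genes with each other. Averaged over the 8 libraries, 3 genes stood well above the others: Itgb2 at 92.7 TPM, Itgav at 73.2 TPM and Itgal at 66.0 TPM. Itgb7 followed at 9.87 TPM and Itgb3 at 3.52 TPM. The other 5 averaged under 1 TPM, with Itgae at 0.578, Itga2 at 0.427, Itga4 at 0.338, Itgb1 at 0.132 and Itga1 at 0.00634 TPM. In the GFP + Plum line the order began with Itgav (62.1 ± 32.5 TPM, SD, n = 2) and Itgb2 (52.8 ± 12.8 TPM), whose libraries overlapped. In the T-bet + Plum line it began with Itgb2 (139 ± 27.8 TPM) and Itgal (121 TPM), whose libraries overlapped too. Itgb7 stood above Itgb3 in all 4 libraries without T-bet and below it in all 4 libraries with T-bet.

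**Figure D1:**
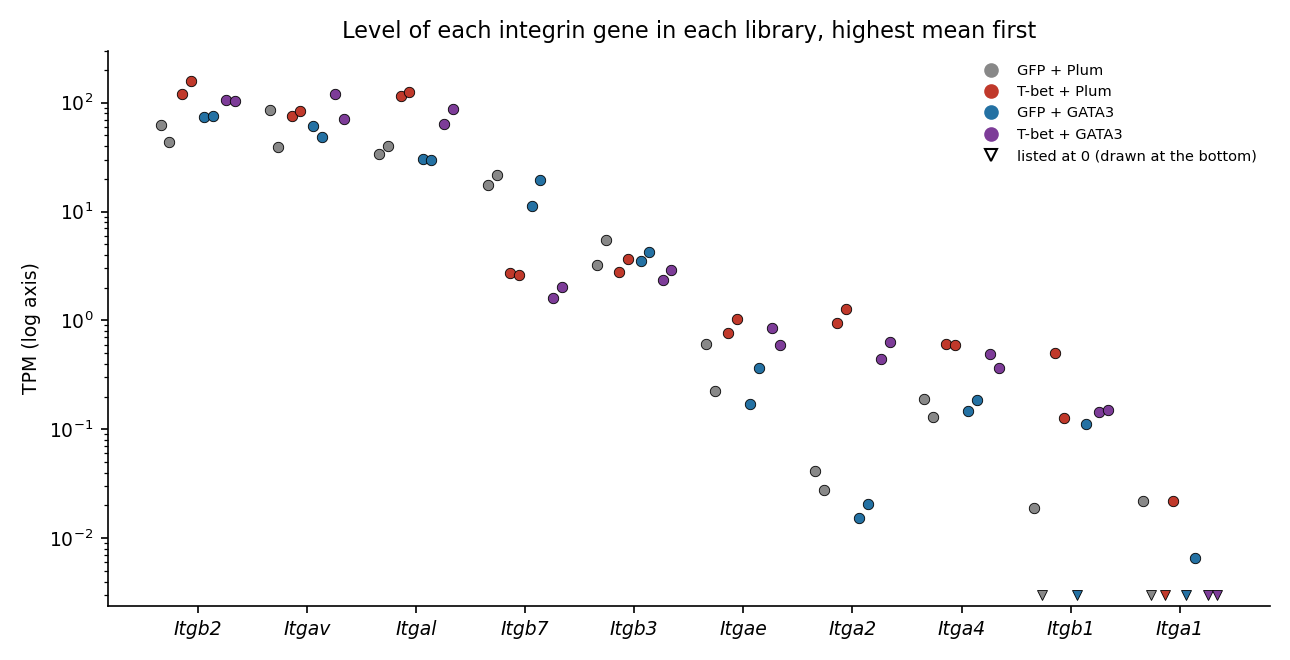
TPM (log axis) of the 10 integrin genes in each of the 8 libraries, ordered by mean level and coloured by line, with libraries listed at 0 drawn as triangles at the bottom. Itgb2, Itgav and Itgal lead in every line, and the points of Itga2 and Itgb7 separate lines with T-bet from lines without it.

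Most of the integrin genes that could be tested differed between the lines with and without T-bet, in both directions. With the effect averaged over the lines without and with added GATA3, 7 of the 8 genes tested passed an adjusted p of 0.05 in edgeR's quasi-likelihood test, where 15.2% of all 14791 genes did. Those that rose were Itga2, Itgal, Itga4, Itgae, Itgb2 and Itgav, and the gene that fell was Itgb7. The 2 genes not tested, Itgb1 and Itga1, had too few counts for the filter. The median log2 fold change over the 8 genes was 1.20, beside 0.02 over all genes. Itga2 entered the test only through the libraries with T-bet, where alone it had enough counts, and without it 6 of 7 passed with a median of 1.00. On CPM, the 4 libraries with T-bet and the 4 without did not overlap for the same 7 genes, and 22.7% of all genes separated that way. The integrin genes were chosen with earlier results of these data known. The values of all genes beside them are therefore no independent comparison.

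**Figure D2:**
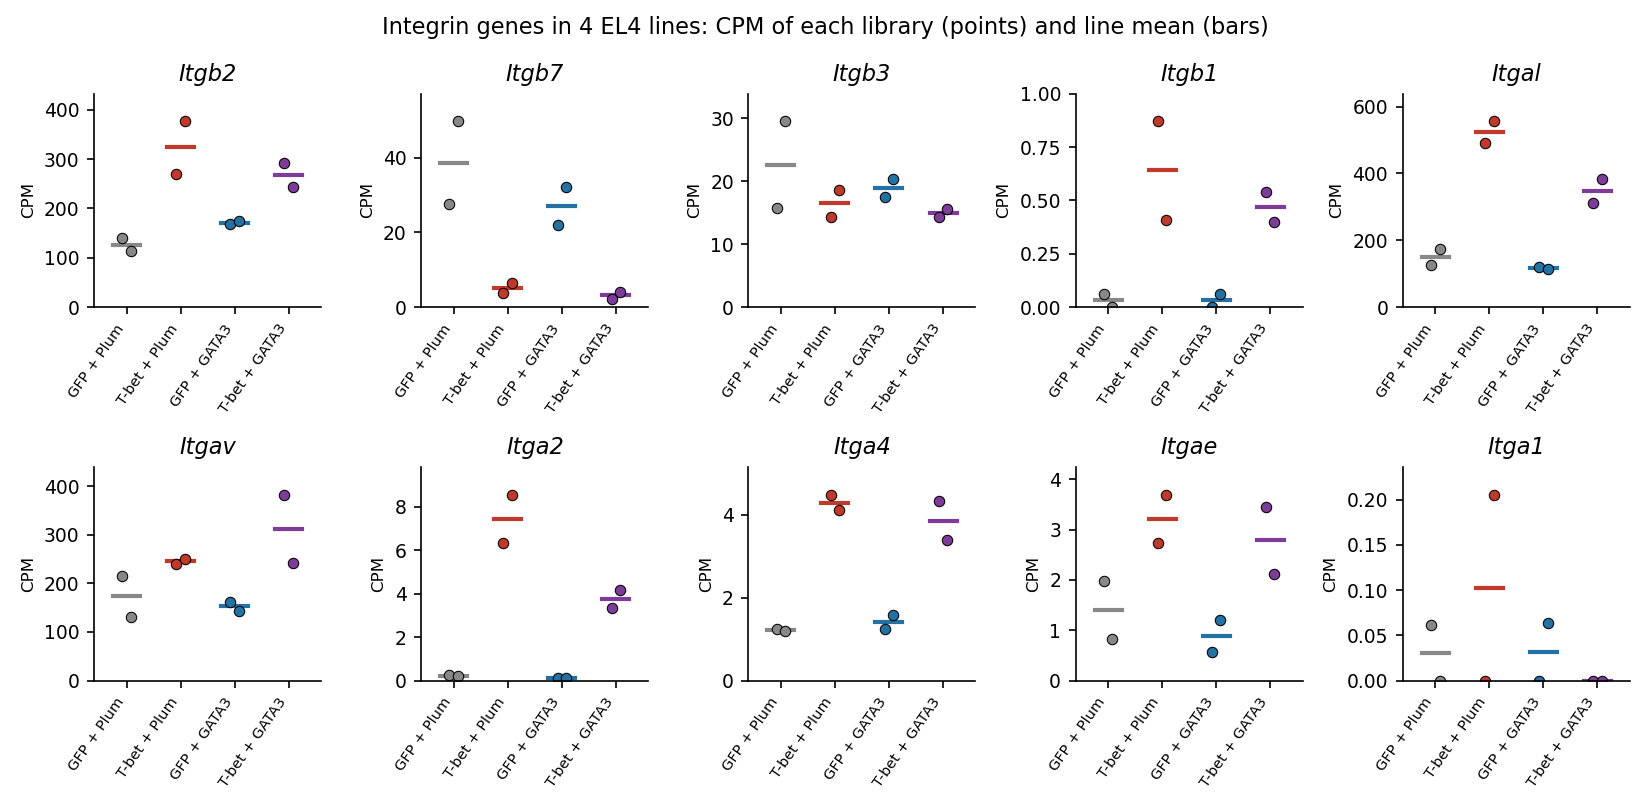
CPM of each integrin gene in each library (points, n = 2 per line) with the line mean (bar), on axes that start at 0. For Itgav, Itgal, Itgb2, Itga2, Itga4 and Itgae both lines with T-bet lie above both lines without it, and for Itgb7 they lie below.

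Itgb2 and Itgal encode the 2 chains of LFA-1, and both rose with T-bet. Itgal (chr7:127296260-127335138, plus strand), the alpha L chain that carries the ICAM-binding domain, was at 127 and 174 CPM for GFP + Plum, at 119 and 115 CPM for GFP + GATA3, at 491 and 556 CPM for T-bet + Plum and at 311 and 385 CPM for T-bet + GATA3. Every library with T-bet was above every library without it, and the T-bet + GATA3 libraries lay below the T-bet + Plum libraries. The averaged log2 fold change was 1.69 (SE 0.13, adjusted p = 0.000128, edgeR), which is 3.22-fold. Itgal also passed in each pairwise comparison with T-bet: against GFP + Plum it was 3.48-fold higher in T-bet + Plum (log2 1.80, SE 0.18, adjusted p = 0.00136) and 2.31-fold higher in T-bet + GATA3 (log2 1.21, SE 0.18, adjusted p = 0.00798). Against GFP + GATA3 it was 2.98-fold higher in T-bet + GATA3 (log2 1.58, SE 0.18, adjusted p = 0.00226).

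Itgb2 (chr10:77530252-77565708, plus strand), the beta 2 chain shared by LFA-1 and the myeloid integrins, was at 139 and 113 CPM for GFP + Plum, at 168 and 174 CPM for GFP + GATA3, at 271 and 376 CPM for T-bet + Plum and at 293 and 243 CPM for T-bet + GATA3. Libraries with T-bet were all above those without it, and both GFP + GATA3 libraries stood between the control and the T-bet libraries. It rose 2.56-fold in T-bet + Plum against GFP + Plum (log2 1.36, SE 0.19, adjusted p = 0.00555, edgeR), and it rose with the effect averaged (log2 1.00, SE 0.13, adjusted p = 0.00190). Between the 2 lines with GATA3 the log2 fold change was 0.65 (SE 0.19, adjusted p = 0.0918), so the test was not passed there. It was passed with DESeq2 (adjusted p = 0.0237), with the 4 libraries of that comparison alone (adjusted p = 0.0460) and with no filter on low counts (adjusted p = 0.00296). In T-bet + GATA3 against GFP + Plum the log2 fold change was 1.08 (SE 0.19, adjusted p = 0.0159, edgeR). This call was lost without GFP + Plum replicate 2 (log2 0.94) or T-bet + GATA3 replicate 1 (log2 0.92). It was also lost in edgeR with the 4 libraries alone (log2 1.08, adjusted p = 0.0507) and with limma on log2(TPM + 1) (log2 0.99, adjusted p = 0.0669). With limma on transcripts of at least 1000 bases it was kept (log2 0.93, adjusted p = 0.0225). The interaction, which asks whether T-bet's effect differs with GATA3, was −0.71 on the log2 scale for Itgb2 with an unadjusted p of 0.0257, and it did not pass after adjustment. The level of Itgal per Itgb2 transcript, as a ratio of TPM, was between 0.397 and 0.972 over the libraries. That ratio was highest in T-bet + Plum replicate 1 and lowest in the 2 GFP + GATA3 libraries. It was between 0.407 and 1.146 on transcripts of at least 1000 bases, and on both scales the ranges of the lines with and without T-bet overlapped.

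Itgb7 (chr15:102215995-102231944, minus strand), which encodes the beta chain of the gut-homing and epithelium-binding pairs, was the one gene of the 8 tested to fall with T-bet. It was at 27.6 and 49.7 CPM for GFP + Plum, at 21.9 and 32.3 CPM for GFP + GATA3, at 3.73 and 6.50 CPM for T-bet + Plum and at 2.16 and 4.12 CPM for T-bet + GATA3. Every library with T-bet was far below every library without it, and 20 to 95 counts lay behind each value with T-bet. It was 7.82-fold lower with the effect averaged (log2 −2.97, SE 0.30, adjusted p = 0.000526, edgeR). It was 7.33-fold lower in T-bet + Plum than in GFP + Plum (adjusted p = 0.00647) and 8.34-fold lower in T-bet + GATA3 than in GFP + GATA3 (adjusted p = 0.00594). The first of these calls was lost without T-bet + Plum replicate 1, the shallowest library (adjusted p = 0.0569, log2 −2.57). T-bet + GATA3 stood 11.9-fold below GFP + Plum (log2 −3.57, adjusted p = 0.00332). Without T-bet + GATA3 replicate 2 the log2 fold changes became −3.69 against GFP + GATA3 (−3.06 with all libraries) and −4.19 against GFP + Plum.

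The partners of the beta 7 chain moved the other way from it. Itga4 (chr2:79255426-79333123, plus strand), the alpha 4 chain used for homing to gut and inflamed tissue, was at 1.24 and 1.21 CPM for GFP + Plum, at 1.24 and 1.59 CPM for GFP + GATA3, at 4.48 and 4.10 CPM for T-bet + Plum and at 4.33 and 3.39 CPM for T-bet + GATA3. The lines with T-bet were all above those without, from 36 to 60 counts per library against 13 to 25. The averaged rise was 3.05-fold (log2 1.61, SE 0.22, adjusted p = 0.00222, edgeR). Itga4 also passed in T-bet + Plum against GFP + Plum (log2 1.80, SE 0.31, adjusted p = 0.0145), in T-bet + GATA3 against GFP + Plum (log2 1.64, SE 0.31, adjusted p = 0.0224) and in T-bet + GATA3 against GFP + GATA3 (log2 1.42, SE 0.31, adjusted p = 0.0361). The pairwise calls were near the threshold, and fits without 1 library lost them while the log2 fold changes stayed between 1.22 and 1.87. The first was lost without GFP + Plum replicate 2 or either T-bet + Plum library (adjusted p = 0.0612 to 0.0827), the second without either GFP + Plum library or T-bet + GATA3 replicate 1 (adjusted p = 0.0754 to 0.124). The third was lost without any single library of the 3 lines other than GFP + Plum (adjusted p = 0.0692 to 0.222), and also with DESeq2 (adjusted p = 0.1003), with offsets for transcript length (adjusted p = 0.0506) and with its 4 libraries alone (adjusted p = 0.0738). Offsets for length lost the second as well (adjusted p = 0.0507).

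Itgae (chr11:73090583-73147446, plus strand), which encodes the alpha E chain (CD103) of tissue-resident T cells, was at 1.98 and 0.825 CPM for GFP + Plum, at 0.574 and 1.20 CPM for GFP + GATA3, at 2.74 and 3.69 CPM for T-bet + Plum and at 3.46 and 2.13 CPM for T-bet + GATA3. On CPM the lines with T-bet did not overlap those without, although the closest libraries, at 1.98 and 2.13 CPM, nearly met. On TPM they overlapped, with GFP + Plum replicate 1 at 0.606 TPM and T-bet + GATA3 replicate 2 at 0.598 TPM. The averaged rise was 2.62-fold (log2 1.39, SE 0.38, adjusted p = 0.0431, edgeR), and no pairwise comparison passed, although T-bet + GATA3 against GFP + GATA3 did with no filter on low counts (adjusted p = 0.0179). The averaged call was lost in 7 of the 8 fits that left out 1 library (adjusted p = 0.0512 to 0.150) and was kept without GFP + Plum replicate 1. Per length, and over all transcripts, the ratio of Itga4 to Itgb7 TPM was between 0.00599 and 0.0129 in libraries without T-bet and between 0.181 and 0.306 in libraries with it. For Itgae the ratio to Itgb7 was between 0.0103 and 0.0348 without T-bet and between 0.280 and 0.539 with it. Short transcript models held part of the Itgb7 TPM, up to 52.5% for one of 455 bases and up to 40.7% for one of 449 bases. On transcripts of at least 1000 bases alone, the ratio to Itgb7 with T-bet was between 0.228 and 0.766 for Itga4 and between 0.371 and 1.35 for Itgae, and Itgae exceeded Itgb7 in T-bet + GATA3 replicate 1. Without T-bet these ratios were at most 0.0169 and 0.0536. An oppositely oriented gene that overlaps Itgae, named Gsg2 in the deposited values (Haspin in GENCODE M21), held 128 to 569 counts per library, more than Itgae itself, and how strand was handled in the quantification is not given in the sources used here. Cerkl, which overlaps Itga4, held 0 to 10.0 counts.

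The beta chains as a group were carried almost wholly by Itgb2 once T-bet was present. Of the summed TPM of the 4 beta genes, Itgb7 made up between 12.8% and 30.7% in libraries without T-bet and between 1.46% and 2.19% in libraries with it. Itgb2 made up between 61.6% and 83.2% without T-bet and between 95.2% and 96.3% with it. Itgb3 held between 2.15% and 7.73% and Itgb1 at most 0.403%. On transcripts of at least 1000 bases, Itgb7 made up between 11.9% and 29.9% without T-bet and between 0.664% and 1.87% with it. These shares restate the levels above within each library and were not tested.

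**Figure D3:**
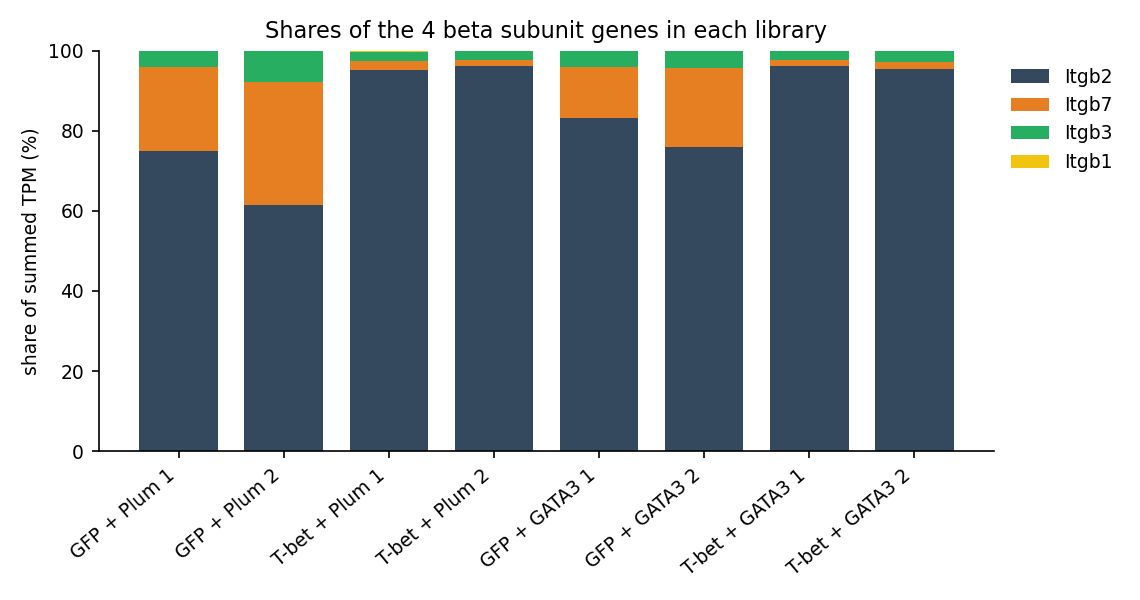
Stacked bars of the share (%) of the summed TPM of the 4 beta subunit genes held by each gene, in each of the 8 libraries. The Itgb7 segment is 12.8% to 30.7% in the 4 libraries without T-bet and 1.46% to 2.19% in the 4 with it.

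Itga2 had the largest fitted difference of the 8 genes tested. It lies at chr13:114833081-114932100 on the minus strand and encodes the alpha 2 chain (CD49b) of the collagen receptor, also a marker of natural killer cells. It held 4 and 3 counts in GFP + Plum, 51 and 125 counts in T-bet + Plum, 1 and 2 counts in GFP + GATA3, and 31 and 63 counts in T-bet + GATA3. These are 0.248 and 0.190 CPM, 6.35 and 8.55 CPM, 0.0957 and 0.127 CPM, and 3.35 and 4.19 CPM. Libraries without T-bet were thus near the floor of 3 counts, while all libraries with T-bet were well above it. Summed over each line, the share of counts was 34.4 times higher in T-bet + Plum than in GFP + Plum (exact 95% interval 16.4 to 86.9, 176 against 7 counts) and 32.0 times higher in T-bet + GATA3 than in GFP + GATA3 (10.6 to 158, 94 against 3 counts). The intervals cover counting error only. In edgeR the averaged effect had an adjusted p of 4.22e-05 and a fitted log2 fold change of 4.99 (SE 0.30), which depends on the prior count added to such low values. Because the filter admitted Itga2 through the lines where it was high, these values describe the fit and add nothing to the counts. A filter of at least 10 counts in every library left the gene out. With no filter it was tested among 30930 genes and passed (adjusted p = 2.34e-34, edgeR). That fit gave far lower p-values for other integrin genes too, so this value adds nothing to the counts either. All of its TPM came from a single transcript of 7108 bases.

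The beta chain that alpha 2 needs was close to absent. Itgb1 (chr8:128685654-128733200, plus strand), which encodes the beta 1 chain of the collagen and fibronectin receptors, held 1 and 0 counts in GFP + Plum, 7 and 6 counts in T-bet + Plum, 0 and 1 counts in GFP + GATA3, and 5 and 6 counts in T-bet + GATA3. The libraries with T-bet held 5 to 7 counts each and the others at most 1. The filter removed Itgb1, so it has no test among the results above. The ratio of count shares was 17.8 in T-bet + Plum against GFP + Plum (exact 95% interval 2.67 to 757) and 11.2 in T-bet + GATA3 against GFP + GATA3 (1.63 to 484). With no filter on low counts, Itgb1 passed in the averaged effect (log2 3.61, SE 0.90, adjusted p = 0.00107, edgeR) and in T-bet + Plum against GFP + Plum (adjusted p = 0.0311), and did not pass between the lines with GATA3 (adjusted p = 0.136). The counts were spread over 4 transcripts, among them a retained intron and a transcript marked for nonsense-mediated decay. Itga1 (chr13:114953096-115101964, minus strand), the alpha 1 chain of the other collagen receptor, held at most 3 counts in any library and none in either T-bet + GATA3 library, so no fold is given. The genes that overlap Itga1 include Pelo, which lies on the same strand and held 256 to 547 counts.

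Itgav (chr2:83724397-83806916, plus strand) encodes the alpha V chain, and its change was smaller and less steady than those of Itga2 and Itgal. It was at 216 and 130 CPM for GFP + Plum, at 162 and 144 CPM for GFP + GATA3, at 241 and 250 CPM for T-bet + Plum and at 382 and 241 CPM for T-bet + GATA3. The lines with T-bet were above those without, but replicate 1 of GFP + Plum came close to the T-bet libraries and replicate 1 of T-bet + GATA3 stood apart from all others. The averaged rise was 1.70-fold (log2 0.77, SE 0.19, adjusted p = 0.0313, edgeR), and no pairwise comparison passed in this fit. With replicate number as a block in edgeR, Itgav passed in T-bet + GATA3 against GFP + Plum (adjusted p = 0.0399) and against GFP + GATA3 (adjusted p = 0.0190). Without the block the nearest was T-bet + GATA3 against GFP + GATA3 (log2 1.03, SE 0.27, adjusted p = 0.0701). That comparison passed with DESeq2 (adjusted p = 0.00148), with no filter (adjusted p = 7.11e-08), and without either GFP + Plum library or T-bet + GATA3 replicate 2 (adjusted p = 0.0234 to 0.0418). T-bet + GATA3 against GFP + Plum passed with DESeq2 (adjusted p = 0.0186), with no filter (adjusted p = 2.78e-05) and without GFP + Plum replicate 1 (adjusted p = 0.0458). Leaving out 1 library lost the averaged call in 6 of 8 cases, namely GFP + Plum replicate 2, T-bet + GATA3 replicate 1, and either library of T-bet + Plum or GFP + GATA3 (adjusted p = 0.0503 to 0.108).

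The level of Itgav per length also depended on its short transcripts. Its TPM was 85.1 and 39.1 in GFP + Plum, 75.9 and 84.5 in T-bet + Plum, 61.0 and 48.2 in GFP + GATA3, and 120 and 71.3 in T-bet + GATA3. On this scale the lines with and without T-bet overlapped. A coding transcript model of 463 bases supplied between 21.4% and 46.3% of this TPM and one of 444 bases between 7.81% and 26.8%, while the transcripts of 1000 bases or more supplied between 41.8% and 51.5%. From those longer transcripts alone Itgav was at 35.6 and 19.2 TPM in GFP + Plum, 36.6 and 37.2 TPM in T-bet + Plum, 25.6 and 23.1 TPM in GFP + GATA3, and 50.3 and 36.7 TPM in T-bet + GATA3. The lines with T-bet then lay above the others, and the closest libraries were those at 35.6 and 36.6 TPM. With limma on log2(TPM + 1), the averaged effect on Itgav was 0.61 with all transcripts (adjusted p = 0.207) and 0.64 with the longer transcripts alone (adjusted p = 0.0351).

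Itgb3 (chr11:104608000-104670476, plus strand), the beta 3 chain that pairs with alpha V, had no called change. It was at 15.7 and 29.5 CPM for GFP + Plum, at 17.4 and 20.4 CPM for GFP + GATA3, at 14.3 and 18.7 CPM for T-bet + Plum and at 14.3 and 15.6 CPM for T-bet + GATA3. The lines overlapped, and replicate 2 of GFP + Plum was the highest. The averaged log2 fold change for T-bet was −0.39 (SE 0.20, adjusted p = 0.248, edgeR), and without GFP + Plum replicate 1 it was −0.59 and passed (adjusted p = 0.0294). Of the 5 beta chains known to pair with alpha V, Itgb3 supplied between 83.3% and 99.2% of the summed TPM, and that sum was between 2.64 and 5.53 TPM. Itgav exceeded Itgb3 in every library. The TPM ratio was 7.12 to 51.3 over all transcripts and 3.50 to 21.4 over those of at least 1000 bases. A noncoding transcript of Itgb3 took up to 22.9% of its TPM and was at 0 in both T-bet + GATA3 libraries.

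No integrin gene passed the test for added GATA3. In GFP + GATA3 against GFP + Plum 0 of 8 passed in edgeR, where 0.0203% of all genes did, and 1 had an unadjusted p under 0.05, namely Itgb2. In T-bet + GATA3 against T-bet + Plum 0 of 8 passed, beside 0.0338% of all genes, and 2 had an unadjusted p under 0.05, Itgal (log2 −0.59, SE 0.17) and Itga2 (log2 −0.98, SE 0.29). With the GATA3 effect averaged, 0 of 8 passed beside 0.0608% of all genes, and Itgal came nearest (log2 −0.48, SE 0.12, adjusted p = 0.476), with 2 genes at an unadjusted p under 0.05. DESeq2, which tested the same 8, and limma, which tested 5, called none in these comparisons either. These counts are read against very few calls among all genes, so they say little about integrins in particular, and they do not show that the genes were the same in the lines compared. Without the filter on low counts, Itgal (adjusted p = 0.00682) and Itgb7 (adjusted p = 0.0483) passed as lower with GATA3 in the averaged effect.

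The effect of T-bet was then set side by side in the lines without and with GATA3. In T-bet + Plum against GFP + Plum 5 of 8 genes passed, beside 6.2% of all genes, and in T-bet + GATA3 against GFP + GATA3 4 of 8 passed, beside 5.77%. In T-bet + GATA3 against GFP + Plum 5 of 8 passed, beside 4.87%. Without Itga2 these counts were 4, 3 and 4 of 7. Itgal, Itga4 and Itgb7 passed in all 3 of these, and Itgb2 passed in those that use GFP + Plum, which is the control of both. The interaction called 0 of 8 integrin genes in edgeR, with 1 at an unadjusted p under 0.05 (Itgb2, above), and it called 0% of all genes. DESeq2 and limma called none there either. With 2 libraries per line the SE of the interaction was between 0.25 and 1.74 on the log2 scale, so differences of that order were not detectable.

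**Figure D4:**
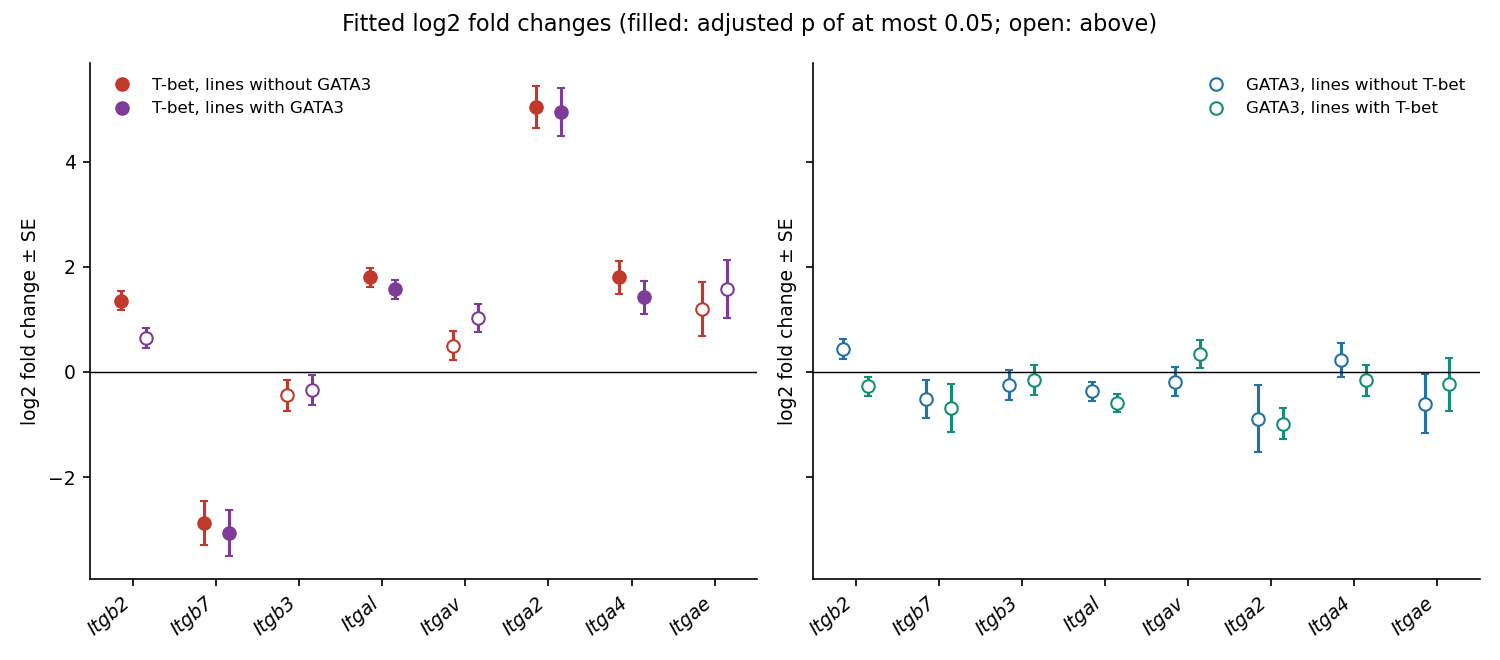
Fitted log2 fold changes (points) with their SE (bars) for the 8 integrin genes tested, for T-bet in lines without and with GATA3 (left) and for GATA3 in lines without and with T-bet (right). Filled points passed an adjusted p of 0.05. On the left 5 and 4 points are filled, and on the right none.

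The remaining integrin genes were low and none passed the test. Of 17 other integrin genes, 7 were tested and 0 passed in any of the 8 comparisons in edgeR or DESeq2. In the averaged T-bet effect, where 15.2% of all genes were called, 1 had an unadjusted p under 0.05 in edgeR, namely Itgam, chosen after its values were seen (0.0969 TPM on average, log2 −1.54, SE 0.54, adjusted p = 0.0962), and the median log2 fold change was −0.04. Itga9 had the highest mean level at 1.21 TPM (log2 −0.82, SE 0.45, adjusted p = 0.276, edgeR) and Itga10 followed at 0.778 TPM. The untested ones were each at most 0.775 TPM in any library.

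Mean levels in the machinery that activates integrins ran from 0.00602 TPM (Fermt1) to 161 TPM (Cytip). Most of its tested genes did not pass. Of 30 genes for inside-out activation and adaptors, 27 were tested, 3 rose and 3 fell with the averaged T-bet effect, beside the 15.2% called among all genes, and the median log2 fold change was −0.06. Ptk2b, which encodes the focal adhesion kinase relative Pyk2, was at 20.2 to 27.8 TPM without T-bet and 58.8 to 62.9 TPM with it (log2 1.54, SE 0.09, adjusted p = 3.82e-05, edgeR). Pxn, which encodes the adaptor paxillin, rose from 5.85 to 7.06 TPM without T-bet to 9.24 to 12.1 TPM with it (log2 0.68, SE 0.12, adjusted p = 0.00716). Cytip, a protein that binds cytohesin, a regulator of LFA-1, fell from 161 to 297 TPM without T-bet to 51.9 to 144 TPM with it (log2 −1.26, SE 0.17, adjusted p = 0.00215). The libraries with and without T-bet did not overlap for any of these 3. Rassf5, the Rap1 partner RAPL, also fell (log2 −0.48, SE 0.11, adjusted p = 0.0234), as did the scaffold Ilk (log2 −0.36, SE 0.10, adjusted p = 0.0446), while Cd47, an integrin-associated receptor, rose (log2 0.77, SE 0.21, adjusted p = 0.0407). These last calls were lost in several fits without 1 library, in which the log2 fold changes ran from −0.61 to −0.42 for Rassf5, from −0.46 to −0.31 for Ilk and from 0.56 to 1.07 for Cd47: that of Rassf5 was lost without either library of T-bet + Plum or GFP + GATA3 (adjusted p = 0.0603 to 0.0918), that of Ilk in 7 of the 8 fits without 1 library, all but T-bet + GATA3 replicate 2 (adjusted p = 0.0525 to 0.157), and that of Cd47 in 6, all but the GFP + Plum libraries (adjusted p = 0.0722 to 0.142). Rap1a, at a mean of 149 TPM, had a log2 fold change of −0.06 (SE 0.14, adjusted p = 0.820).

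Among 18 integrin ligands found, 8 were tested and 2 rose with the averaged T-bet effect, beside 15.2% called among all genes, and the median log2 fold change was 0.44 beside 0.02. Spp1, which encodes osteopontin, a ligand of alpha V beta 3, was at 2.80 and 0.618 TPM in GFP + Plum, 195 and 168 TPM in T-bet + Plum, 6.97 and 5.90 TPM in GFP + GATA3, and 627 and 216 TPM in T-bet + GATA3. Every library with T-bet was far above the rest, and T-bet + GATA3 replicate 1 was the highest (log2 6.72, SE 0.54, adjusted p = 0.000170, edgeR). The fitted value was 7.73 without GFP + Plum replicate 1 and 6.15 without T-bet + GATA3 replicate 1. Mfge8, which bridges alpha V integrins to dying cells, was at 33.7 to 54.6 TPM without T-bet and 60.8 to 75.1 TPM with it (log2 0.63, SE 0.12, adjusted p = 0.00962, edgeR), a call lost with limma on log2(TPM + 1) (adjusted p = 0.101). Tgfb1, whose latent form is opened by alpha V integrins, had the highest mean of the list at 199 TPM and a log2 fold change of 0.24 (SE 0.14, adjusted p = 0.319).

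Of 7 other adhesion molecules of T cells, 5 were tested and 3 rose with the averaged T-bet effect, with a median log2 fold change of 1.67, beside 15.2% called and a median of 0.02 among all genes. Without Cd226, which is near 0 in the lines without T-bet, 2 of 4 rose and the median was 0.91. Cd2, a receptor for CD48 that is also one of the 13 T cell genes above, was at 1.57 to 2.58 TPM without T-bet and 9.66 to 19.8 TPM with it (log2 3.01, SE 0.19, adjusted p = 5.28e-05, edgeR). Cd226, which works with LFA-1 at the contact with a target cell, was at 0 to 0.258 TPM without T-bet and 0.672 to 1.63 TPM with it. It too entered the test only through the libraries with T-bet, and its fitted log2 fold change of 3.78 became 6.05 without GFP + GATA3 replicate 2, which left that line at 0. Cd6, a receptor for ALCAM, was at 0.556 to 1.33 TPM without T-bet and 0.852 to 3.64 TPM with it, so the libraries overlapped through T-bet + GATA3 replicate 2. It rose by the test (log2 1.67, SE 0.41, adjusted p = 0.0310, edgeR; 1.06 to 1.99 on the log2 scale without 1 library), a call lost in 6 of the 8 fits without 1 library, all but GFP + Plum replicate 1 and T-bet + GATA3 replicate 2 (adjusted p = 0.0656 to 0.119). Pecam1, an adhesion molecule of vessel and blood cells named after its values were seen, had the opposite sign (log2 −1.07, SE 0.32, adjusted p = 0.0615, edgeR). DESeq2 called 4 of the 5 tested, a count with no share of all genes beside it, since the 15.2% is that of edgeR. Cd44, the hyaluronan receptor and the highest of the list at a mean of 170 TPM, had a log2 fold change of 0.16 (SE 0.08, adjusted p = 0.248).

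**Figure D5:**
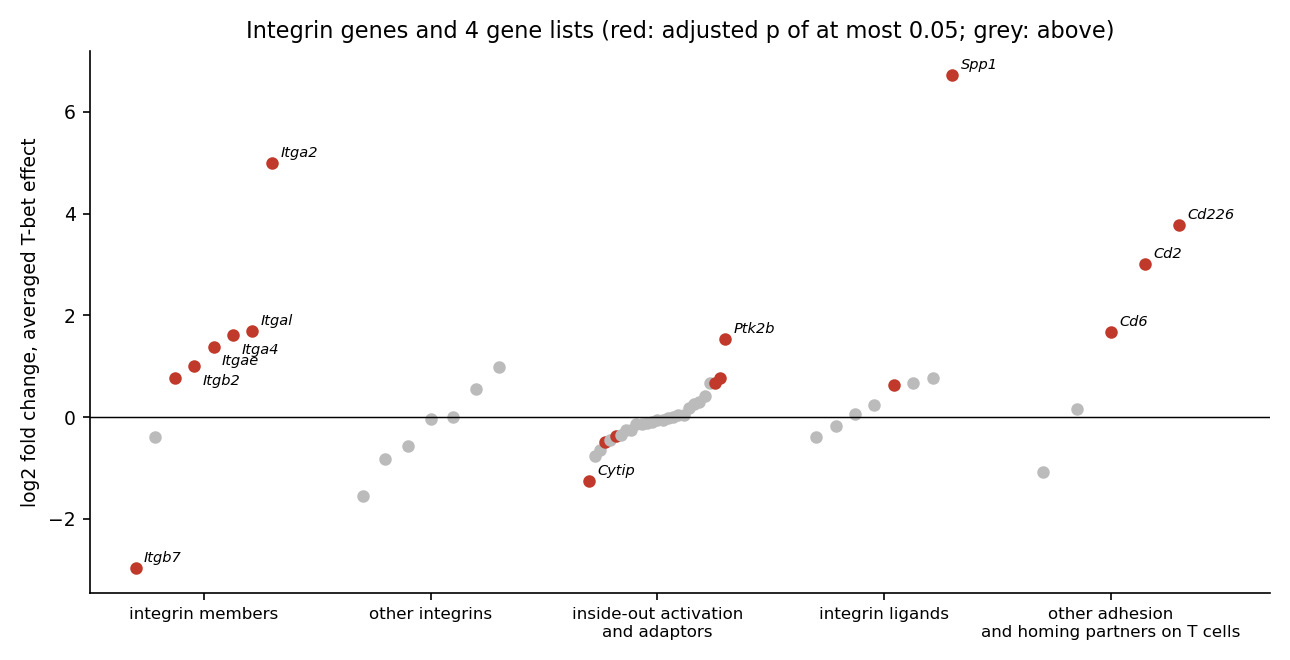
Log2 fold change of the averaged T-bet effect for the integrin genes tested and for the genes tested in each of 4 lists, with one point per gene, red where the adjusted p was at most 0.05. Spp1 (6.72), Itga2 (4.99) and Cd226 (3.78) stand highest and Itgb7 (−2.97) lowest.

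As a description, the genes most like Itga2 over the 8 libraries, by Pearson's r of log2 CPM among 14790 other genes, were Erc2 (0.996), Reck (0.995), Ctsw (0.995), Sema6d (0.995) and H2-Q4 (0.994). Ctsw, a protease of cytotoxic lymphocytes, was at 0.191 to 0.433 CPM without T-bet and 45.7 to 104 CPM with it. The 8 points are 2 harvests of each of 4 lines and are shared by all these genes.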

How the data were processed

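The authors trimmed reads with Trim Galore, checked them with FastQC and quantified transcripts with kallisto on build mm10 (GRCm38), per the labels and the study's methods. Versions of these tools are not given in the sources used here. The methods name Gencode M20, whereas the deposited values are labelled M18. The authors deposited unnormalized estimated counts, which can be fractional, together with TPM, for 136535 transcripts in each library. The deposited lengths and effective lengths are in bases.

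The study states more replicates for this experiment than the 2 libraries per line used here. From these files, estimated counts and TPM were summed per gene and counts were rounded. Positions came from GENCODE M21 (GRCm38) and promoters from RefSeq. edgeR 4.0.16 in R 4.3.3 was used with TMM, filterByExpr (14791 genes) and the quasi-likelihood test on one fit of the 8 libraries, adjusted by Benjamini-Hochberg over all genes. Alternatives used DESeq2 1.42.0 and limma 3.58.1 on log2(TPM + a pseudocount of 1 or 0.1) of genes with a mean of at least 1 TPM. SE were taken as the log2 fold change divided by the root of F. CPM used TMM-scaled library sizes. Python 3.11.15, scipy 1.17.1 and matplotlib 3.10.9 were also used.

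The 10 genes and the gene lists were chosen with earlier results of these data known. From each of 4 lists, at most 5 genes past the test (lowest adjusted p first) and at most 2 at the highest mean TPM were named, and Ilk was named in addition after its values were seen. One gene of the lists is not reported here and was left out of their counts. On simulated data with 200 of 14791 genes changed by a log2 of 2, edgeR found 100% in the averaged T-bet effect and in T-bet + Plum versus GFP + Plum, with 2.91% and 4.31% false calls. In the averaged effect false calls were 11.1% for DESeq2, 9.63% for limma and 9.50% for edgeR with length offsets. The simulation changed only genes with higher mean counts and gave every gene the same spread between libraries. These rates therefore do not cover low genes such as Itga2, Itga4 and Itgae, nor genes of unlike spread. Within a line the 2 libraries differed by more than counting noise (chi-square per degree of freedom 10.9 to 32.5), so none was a copy.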

Additional observations from a re-analysis of the deposited data

How the results depend on the processing

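No integrin effect called in the main fit reversed its direction in an alternative that tested it. Effects not called there were not checked for this. Scaling by library size alone moved the median of all genes by less than 0.1 on the log2 scale. For the averaged T-bet effect (7 integrin genes passed), limma called 3 with either pseudocount and 4 with transcripts of at least 1000 bases, an alternative chosen after seeing the data, but those fits tested only 5 of the 10 genes, and 4 also had a log2 fold change above 1.5 in size. For T-bet + Plum versus GFP + Plum (5), limma called 3 in all 3 forms. For T-bet + GATA3 versus GFP + Plum (5), limma called 2, 2 and 3, the 4 libraries of the comparison alone gave 2, and 3 exceeded the fold. For T-bet + GATA3 versus GFP + GATA3 (4), limma called 2 in each form and a fit with no filter called 7. That fit called 2 for the averaged GATA3 effect (0). Its adjusted p-values were far below those of the main fit at similar log2 fold changes. For Itgb7 in the averaged T-bet effect they were 1.54e-60 and 0.000526 (edgeR), at −2.98 and −2.97. Calls given with no filter are therefore not as strict as those of the main fit, and the cause was not tested. Leaving out 1 library gave 3 to 5 genes in each pairwise comparison with T-bet and 5 to 9 in the averaged effect (9 without GFP + Plum replicate 1, with Itgb3 and Itgb1 added), and 0 in those of GATA3 and the interaction. A library left alone in its line was taken to vary like the other lines. The shares of all genes given above belong to the main edgeR fit. The counts from the other fits have no such share beside them and are not read against it.

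Itgal, Itgb7, Itgb2 and Itga4 kept the averaged call in every alternative that tested them, whereas Itgav lost it in 9 of 18 and Itgae in 8 of 14, and the cause was not tested. In the 4 libraries of T-bet + GATA3 versus GFP + Plum alone, Itgal (adjusted p = 0.0540), Itgb2 (0.0507) and Itga4 (0.108) missed the threshold in edgeR. Their log2 fold changes there, 1.21, 1.08 and 1.64, were about those of the main fit. The labels do not say whether same-numbered libraries were harvested together. The r of their deviations was −0.05 to 0.30 with a mean of 0.14, and what they share was not tested. With the replicate block the counts were 7 for the averaged T-bet effect and 0 for that of GATA3. The adjusted p of Itgb7 in the averaged T-bet effect went from 0.000526 to 6.45e-06 (edgeR). The block moved T-bet + GATA3 versus GFP + Plum from 5 to 6 and T-bet + GATA3 versus GFP + GATA3 from 4 to 5, as Itgav passed in both (adjusted p = 0.0399 and 0.0190, edgeR). Depth limits Itga2, at 1 to 4 counts without T-bet, and Itgb1 and Itga1, at 0 or 1.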
